A study of Mus musculus with 16 samples.

Results

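CpG methylation was described at 9 mouse genes that direct where lymphocytes go: the chemokine receptors *Cxcr5*, *Cxcr4*, *Ccr6*, *Ccr7* and *Ccr9*, the sphingosine-1-phosphate receptors *S1pr1* and *S1pr4*, and the integrin alpha chains *Itgae* and *Itga4*. They were taken by name from the 21755 protein-coding genes on the autosomes and the X chromosome in GENCODE vM21 (mm10). Each gene was divided along its own direction into tiles of 500 bp, from 5 kb before its annotated start to its end, and a window of 1 kb on either side of the start was taken as its promoter. In all, 762 tiles were laid, 236 of them held fewer than 3 CpGs, and 414 had enough calls in enough libraries to be tested. All 9 promoter windows were tested.

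The data were 16 whole genome bisulphite sequencing (WGBS) libraries from spleens of C57BL/6J mice, which were 6 to 8 weeks old, 8 of CD43- B cells (resting B cells) and 8 of naive CD4+ T cells, each isolated on magnetic columns. Each cell type had 4 male and 4 female libraries, and each sex and cell type had 2 standard bisulphite (BS) and 2 oxidative bisulphite (oxBS) libraries. BS reads 5-methylcytosine and 5-hydroxymethylcytosine alike as methylated, whereas oxBS reads only 5-methylcytosine as methylated. The labels name no transgene or treatment, the DNA came from pooled mice, and in the protocol a part of each adapter-ligated sample was oxidised. A BS and an oxBS library may therefore share DNA, although the labels do not say which. The p-values below treat 16 libraries as independent and may be too small. Those of the quasi-binomial test measure the spread between libraries, or the counting error of calls where the spread is smaller than that. The same spread is taken for both cell types. Libraries held between 123323834 and 170619848 calls at CpGs (5.78 to 7.99 per CpG), and the median tested tile of these genes held 46.5 calls in a library.

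Naive lymphocytes circulate between blood, spleen and lymph nodes, and each step of the route is read by a surface receptor. CXCR5 follows CXCL13 into B cell follicles, CCR7 follows CCL19 and CCL21 into T cell zones and lymph nodes, and S1PR1 senses sphingosine-1-phosphate and lets cells leave again. CCR9 and the integrins containing the alpha-4 or alpha-E chain are known for homing to, or staying in, the gut wall. Methylation of CpGs at promoters and enhancers is usually low where these elements are in use, and high across the bodies of most genes. Because a library pools many cells, a level between the extremes can come from a mixture of cells or of alleles, and these cannot be told apart here.

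The marker genes followed the cell labels. Of 10 B cell markers, the promoters of 8 were more methylated in T cells (mean over the list 15.4% in B cells and 53.3% in T cells), and of 12 T cell markers 9 were more methylated in B cells (69.8% and 17.8%). *Ms4a1*, which encodes CD20, stood at 13.6% in B cells and 94.2% in T cells, and *Cd3e*, a subunit of the T cell receptor complex, at 86.5% and 2.63%. Of 5 markers of CD8 T cells and NK cells, *Cd8a* (86.7% and 60.5%) and *Cd8b1* (90.3% and 34.9%) were lower in T cells, although the T cells were sorted as CD4+. Of 6 myeloid markers only *Lyz2* (46.6% and 65.0%) and of 5 erythroid and platelet markers only *Gp9* (41.7% and 51.8%) were called, both higher in T cells. Of all promoters 2.93% were called. The part of other cell types in the results below was not tested.

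Of the 414 tested tiles, 76 (18.4%) differed between B and T cells, meaning an adjusted p under 0.05 and at least 20 percentage points between the mean levels of the cell types. Over all 1283810 tiles of all genes the share was 3.94%. Of the 76 tiles, 53 were more methylated in B cells (2.58% of all tiles were called in that direction) and 23 in T cells (1.35% of all tiles). Of the 9 genes 8 held at least 1 such tile, and *S1pr4* held none. Among the 21271 genes with a tested tile, whose lengths differ, 46.2% held one. With the calls of a BS and an oxBS library of consecutive numbers added, as 4 samples in each cell type, 58 tiles were called (3.13% of all tiles), 44 of them higher in B cells and 14 in T cells. All were among the 76, and they included the tile of largest difference of each of the 8 genes. The promoter of *Ccr7* was called in this way too (1.94% of all promoters). The median size of the difference was 3.95 points in the tiles of these genes and 1.79 points in all tiles. Every B cell library lay apart from every T cell library in 77 of the 414 tested tiles (18.6%), beside 4.69% of all tiles. Among called tiles the share was close to that of called tiles elsewhere, with 66 of 76 (86.8%) beside 85.0% of all called tiles. Most tiles were alike in both cell types, 228 at 80% or more in both and 42 at 20% or less in both.

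Of the 76 called tiles 67 lay inside the genes, much as the tested tiles did (350 of 414). By feature, 50 lay in introns (of 243 tested there), 9 upstream (of 64), 8 touched coding exons (of 74) and 9 touched exon parts that code for no protein (of 33). Within 1 kb of the start of a coding transcript, 11 of 42 tested tiles were called. Shares of all tiles by feature were not computed, so these counts say where the tiles lay and no more. The median number of CpGs was 6 both in called and in tested tiles. Another annotated gene overlapped 8 of the called tiles, 7 of them at *Ccr9*.

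The promoter windows alone showed little of this. Only *Ccr7* passed the test there, against 2.93% of 20905 promoters, and the order of the 9 genes was nearly shared by the cell types. In B cells the means rose from *Itga4* (0.464%) through *Cxcr4* (1.14%), *S1pr1* (2.81%), *S1pr4* (5.42%), *Ccr9* (6.58%), *Ccr7* (19.0%), *Ccr6* (44.2%) and *Cxcr5* (88.3%) to *Itgae* (92.1%). In T cells the order was *Itga4* (0.376%), *Cxcr4* (0.937%), *S1pr1* (1.34%), *S1pr4* (4.41%), *Ccr7* (5.36%), *Ccr9* (5.52%), *Ccr6* (43.2%), *Itgae* (83.8%) and *Cxcr5* (86.2%). Neighbours in these orders overlapped in their libraries, except that *Ccr6* stood apart from the genes on both sides of it in both cell types. So *Cxcr5*, the receptor of B cell follicles, was highly methylated at its annotated start in B cells and T cells alike, and *S1pr1* and *Cxcr4* were nearly free of methylation at theirs in both.

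**Figure D1:**
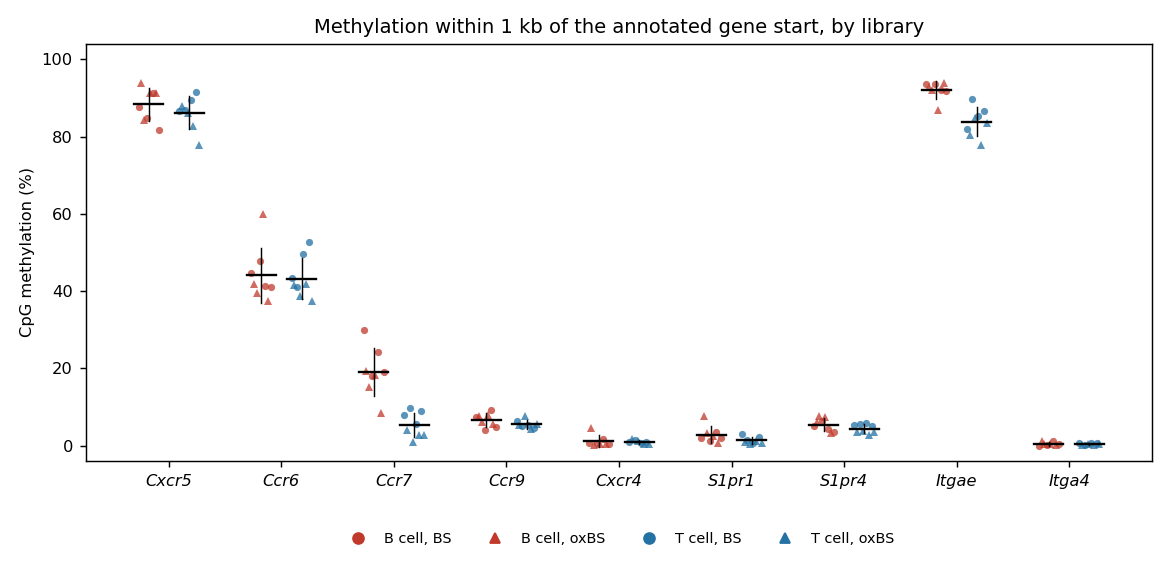
CpG methylation (%) in the window of 1 kb on either side of the annotated start of each gene. Each point is 1 library (red, B cells; blue, T cells; circles, BS; triangles, oxBS), with the mean and SD over 8 libraries; the cell types stand apart by over 10 points only at *Ccr7* (19.0% and 5.36%).

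*Cxcr5* (chromosome 9, 44511787-44561877, minus strand) held 18 called tiles of 78, of which 12 were higher in T cells and 6 in B cells. With consecutive library numbers added, 6 of the 12 and 4 of the 6 were called. The tile with the largest difference lay 1.5 to 1 kb before the annotated start. The lowest B cell library had 69.6%, the median was 76.8% and the highest 81.8%. Among T cell libraries the lowest had 4.35%, the median was 11.2% and the highest 18.2%. The groups did not overlap, and the means were 76.8% ± 4.404 and 11.3% ± 4.75 (SD, n = 8 each). They differed by 65.5 points (adjusted p = 8.39e-08, quasi-binomial test). The T cells were thus the less methylated cells at this place.

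The stretch of this tile with the most CpGs is given because all of its CpGs were lower in T cells (CG in capitals).
*Cxcr5*, chr9:44563056-44563355, minus strand of mm10: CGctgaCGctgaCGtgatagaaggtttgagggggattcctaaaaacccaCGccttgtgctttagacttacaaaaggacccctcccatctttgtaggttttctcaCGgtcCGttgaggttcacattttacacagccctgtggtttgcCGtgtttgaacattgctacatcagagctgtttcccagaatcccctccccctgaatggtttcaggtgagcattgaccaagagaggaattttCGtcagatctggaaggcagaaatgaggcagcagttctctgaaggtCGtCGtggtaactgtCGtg
At single CpGs of the tile, with calls of the 8 libraries added, levels of B cells ran from 53.8% to 96.2% and those of T cells from 0% to 58.3%. The T cell level was highest at the CpGs towards either end of the tile, with 58.3% at position 44562939 and 31.0% at 44563354, and 0% at 4 CpGs between them. The count of 0 allows levels of up to 3.26% to 5.17% at these.

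The opposite direction was found on both sides of it. At 4 to 3.5 kb before the start, B cell libraries lay between 10.0% and 33.9% (median 18.3%) and T cell libraries between 69.2% and 91.1% (median 83.1%). Farther along the gene a run of 10 called tiles with 66 CpGs, from 34.5 to 40.5 kb, was less methylated in B cells, with B cell means between 0% and 59.6% and T cell means between 42.9% and 84.3%. With consecutive library numbers added, 5 of these 10 tiles were called, and the others had an adjusted p between 0.0508 and 0.185 in the quasi-binomial test. In the tile from 35 to 35.5 kb none of 277 calls was methylated in B cells, which allows a level of up to 1.08%, whereas T cell libraries lay between 11.5% and 64.3% (median 50.5%). In the tile from 37 to 37.5 kb B cell libraries reached at most 6.67% (median 3.57%), and T cell libraries lay between 45.0% and 71.7% (median 63.9%).

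This run covers the start of Cxcr5-201, the coding transcript that begins 35.5 kb inside the annotated gene. In the window of 1 kb on either side of that start, B cells had 32.6% ± 5.83 and T cells 72.9% ± 6.06 (SD, n = 8 each). This difference had an adjusted p of 5.01e-06 in the quasi-binomial test. Of all 52763 starts of coding transcripts, 3.96% differed by at least 10 points at an adjusted p under 0.05. The start that GENCODE lists for the gene as a whole is that of Cxcr5-204, where the difference was 2.13 points (adjusted p = 0.580, quasi-binomial test). Beyond the run, 3 called tiles from 44 to 46 kb were again lower in T cells, by 21.04 to 59.4 points.

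*Ccr6* encodes the receptor of CCL20 and is known from B cells, Th17 cells and cells of mucosal lymphoid tissue. The gene (chromosome 17, 8236043-8257141, plus strand) held 10 called tiles of 39, of which 8 were higher in T cells and 2 in B cells. Around the start of transcripts Ccr6-203, Ccr6-205 and Ccr6-206, 7.77 kb inside the gene, B cells had 56.3% ± 9.72 and T cells 92.8% ± 1.38 (adjusted p = 4.80e-06, quasi-binomial test). No start of another coding transcript of the gene differed by more. Around that of Ccr6-201 B cells had 68.6% and T cells 87.6%, and around that of Ccr6-208 79.1% and 91.8%. From 2 to 2.5 kb, in an intron, B cell libraries lay between 8.11% and 22.8% (median 17.6%) and T cell libraries between 65.1% and 77.6% (median 71.7%). The groups were apart there by far more than their own spread, and 5 of the called tiles further on and upstream had the same direction with T cell means over 80%.

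The tile of *Ccr6* with the largest difference ran the other way. From 15.5 to 16 kb, which takes in the beginning of a non-coding exon part of Ccr6-201, B cell libraries lay between 61.5% and 90.2% (median 75.6%) and T cell libraries between 2.74% and 9.09% (median 5.16%). The difference was 70.98 points (adjusted p = 1.19e-07, quasi-binomial test), and all 5 CpGs of the tile carried it, by 64.5 to 79.9 points each. Tiles on either side of it were over 80% in both cell types in the plot of levels along the gene.

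**Figure D2:**
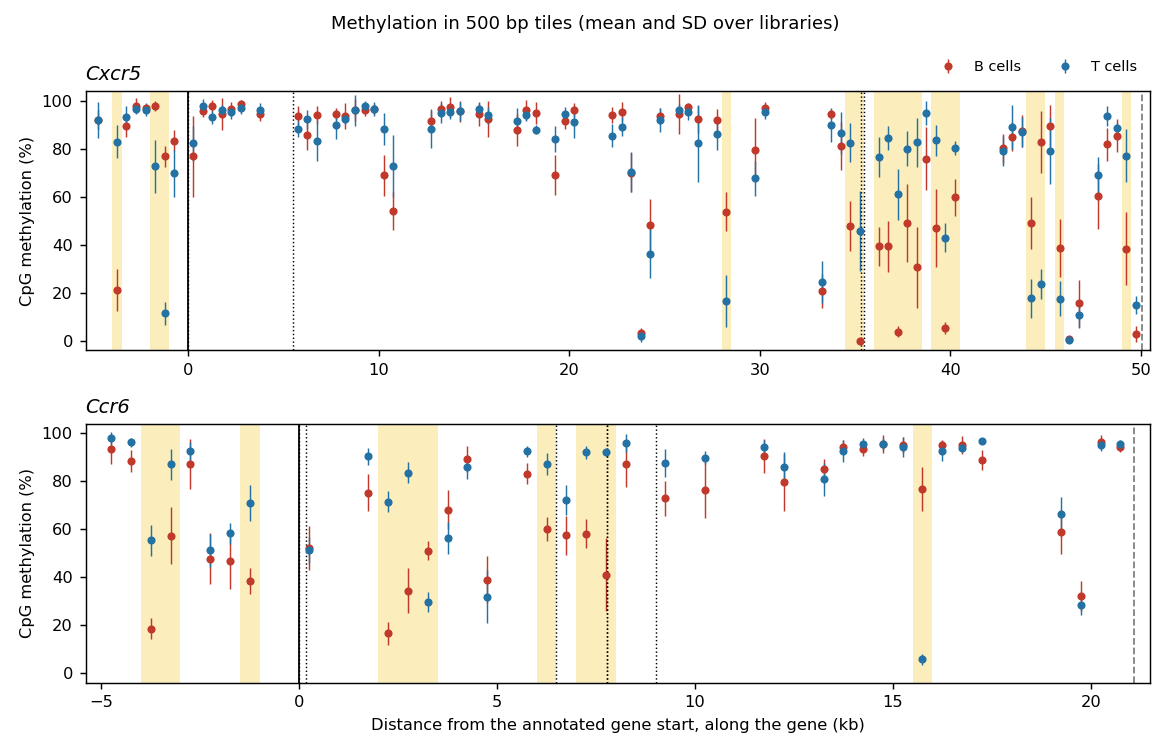
CpG methylation (%) in 500 bp tiles along *Cxcr5* and *Ccr6* against distance from the annotated gene start (kb); points are means and bars SDs over libraries (red, B cells; blue, T cells). Shaded tiles were called, dotted lines mark starts of coding transcripts and the dashed line the gene end; the run from 34.5 to 40.5 kb of *Cxcr5* lies lower in B cells, and the *Ccr6* tile at 15.5 kb stands at 5.75% in T cells.

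*Ccr7*, the receptor that brings naive T cells into lymph nodes, had the largest share of called tiles, 15 of 25, and all 15 were more methylated in B cells. The gene lies on the minus strand of chromosome 11 at 99144196-99155077. From 1.5 to 4 kb after the start, inside an intron, 5 adjoining tiles with 30 CpGs had B cell means between 79.9% and 90.8% and T cell means between 0% and 1.70%. In the tile from 2.5 to 3 kb, B cell libraries lay between 83.0% and 100% (median 90.6%) and T cell libraries between 0% and 4% (median 0%). The means were 90.8% ± 6.47 and 0.821% ± 1.57 (SD, n = 8 each). Their difference of 89.9 points (adjusted p = 5.83e-08, quasi-binomial test) was the largest in the tested tiles of the 9 genes.

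Its sequence is shown as the place of that difference, with the CpGs in capitals.
*Ccr7*, chr11:99152216-99152515, minus strand of mm10: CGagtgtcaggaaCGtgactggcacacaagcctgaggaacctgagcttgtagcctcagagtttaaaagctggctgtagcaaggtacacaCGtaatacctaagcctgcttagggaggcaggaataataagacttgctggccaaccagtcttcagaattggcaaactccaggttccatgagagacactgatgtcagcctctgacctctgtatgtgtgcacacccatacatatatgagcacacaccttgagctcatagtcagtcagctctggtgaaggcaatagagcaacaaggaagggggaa
The CpGs at positions 99152425, 99152501 and 99152514 had 84.8%, 90.0% and 91.5% in B cells and 1.01%, 1.02% and 0% in T cells, each over 79 to 99 calls of the 8 libraries. In 3 other tiles of the run no methylated call was seen in T cells. In the one from 3 to 3.5 kb, 0 of 339 T cell calls were methylated, which allows a level of up to 0.885%.

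A second run of 9 called tiles with 110 CpGs, from 5 to 10 kb, reached the coding exons. B cell means lay between 29.7% and 92.4% there and T cell means between 0% and 39.5%. In the tile from 8 to 8.5 kb B cell libraries lay between 67.7% and 89.7% (median 74.1%) and T cell libraries between 0% and 9.30% (median 3.63%). The tiles between the runs and at 7 kb also had more methylation in B cells, by 12.3 to 17.4 points, under the limit of 20. In the last tested tile, from 10 to 10.5 kb, the means were 46.2% and 42.3%.

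At the *Ccr7* promoter window, B cell libraries lay between 8.33% and 29.8% (median 18.7%) and T cell libraries between 0.971% and 9.76% (median 4.88%). The groups overlapped, the means of 19.0% ± 6.26 and 5.36% ± 3.20 differed by 13.7 points, and the adjusted p of the quasi-binomial test was 3.59e-04 (exact permutation test over the libraries, two-sided, p = 4.66e-04, adjusted p = 0.00901). The 500 bp before the start were free of methylation in both (0.227% and 0.133%), and the tile before it, from 1 to 0.5 kb upstream, had 53.7% and 23.4%. Within 500 bp on either side of the start the difference was 3.42 points. In each sex or assay alone the window differed by 12.45 to 14.9 points, and the adjusted p of the quasi-binomial test was between 0.0570 and 0.197.

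*S1pr1*, the receptor for leaving lymphoid organs, lies on the minus strand of chromosome 3 at 115710433-115715072. From 0.5 kb before to 1.5 kb after its start every tile was under 2% in both cell types. From 2 to 4.5 kb, 4 called tiles with 46 CpGs were more methylated in B cells, 3 of them in the coding exon. From 2.5 to 3 kb, B cell libraries lay between 68.8% and 87.8% (median 81.3%) and T cell libraries between 6.02% and 28.8% (median 20.8%). From 3 to 3.5 kb, where B cell libraries had 76.4% to 97.1% (median 85.0%) and T cell libraries 2.59% to 11.4% (median 7.27%), the difference was 79.6 points (adjusted p = 1.02e-07, quasi-binomial test).

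The coding part of this last tile is printed from the place of the largest difference of the gene. The tile reaches into the untranslated part of the exon, which is not shown.
*S1pr1*, chr3:115711798-115712072, minus strand of mm10: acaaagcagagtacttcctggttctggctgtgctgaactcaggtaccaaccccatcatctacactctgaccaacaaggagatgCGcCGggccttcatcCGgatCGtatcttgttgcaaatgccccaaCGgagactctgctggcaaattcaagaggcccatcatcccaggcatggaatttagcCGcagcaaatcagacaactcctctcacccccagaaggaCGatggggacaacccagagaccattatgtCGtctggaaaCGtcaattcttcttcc
Every one of the 11 CpGs of the tile was lower in T cells, by 67.6 to 94.8 points.

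*S1pr4*, a relative of *S1pr1* expressed mostly in blood cells, is the gene without a called tile among 13 tested. Its largest difference, in the first 500 bp, was 11.2 points. B cell libraries lay between 15.9% and 48.8% (median 31.6%) and T cell libraries between 11.8% and 37.2% (median 22.9%), and these ranges overlapped. The means were 34.2% ± 12.5 (SD, n = 7) and 23.0% ± 9.23 (SD, n = 8). The quasi-binomial test gave an adjusted p of 0.395. The 1 B cell library left out had under 20 calls there. With calls of the 8 libraries added, the CpG at 81500131 differed by 44.1 points, over 18 and 17 calls. The other CpGs of the tile differed by at most 6.10 points. Those at 81499648 and 81499672, at 0% in both cell types, had 92 and 96 calls in T cells and 62 and 64 in B cells. The part of this coverage in the tile means was not tested. The next 4 tiles, through the coding exon to the gene end, were under 5% in both. So the 500 bp after the start were low in both cell types at *S1pr1*. At *S1pr4* they held CpGs at 0% beside CpGs at intermediate or high levels. The called tiles lay in the downstream part of *S1pr1*.

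**Figure D3:**
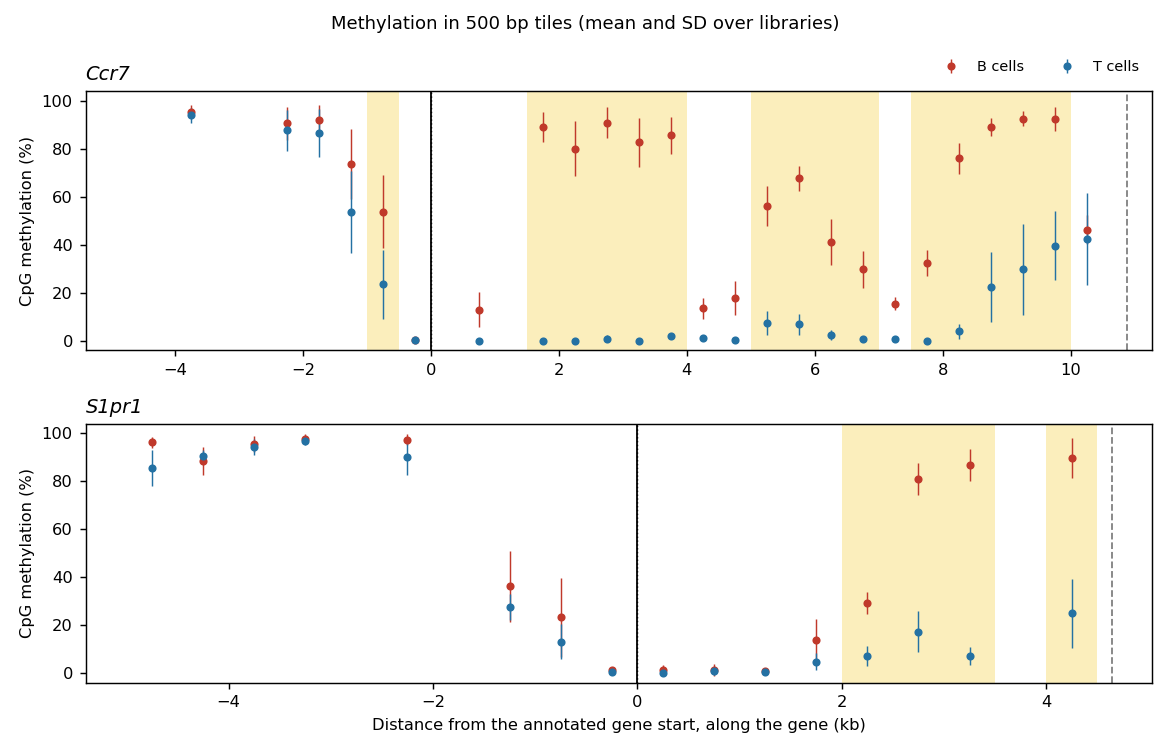
CpG methylation (%) in 500 bp tiles along *Ccr7* and *S1pr1* against distance from the gene start (kb), drawn as in the plot of *Cxcr5* and *Ccr6*. B cells lie above T cells in each shaded tile; T cell means are at or under 1.70% from 1.5 to 4 kb of *Ccr7*.

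*Cxcr4*, the receptor of CXCL12 that holds lymphocytes in bone marrow, had 1 called tile of 14, 2.5 to 2 kb before its start (chromosome 1, gene 128588199-128592293, minus strand). It was less methylated in B cells. B cell libraries lay between 10.7% and 51.2% (median 45.6%) and T cell libraries between 78.6% and 95.6% (median 85.5%), and the means of 38.6% ± 15.4 and 86.2% ± 6.08 differed by 47.6 points (adjusted p = 3.91e-05, quasi-binomial test). The tiles on its 2 sides were at 86.7% or more in both cell types.

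The CpGs of the tile did not share the difference equally, so its sequence is given.
*Cxcr4*, chr1:128594473-128594772, minus strand of mm10: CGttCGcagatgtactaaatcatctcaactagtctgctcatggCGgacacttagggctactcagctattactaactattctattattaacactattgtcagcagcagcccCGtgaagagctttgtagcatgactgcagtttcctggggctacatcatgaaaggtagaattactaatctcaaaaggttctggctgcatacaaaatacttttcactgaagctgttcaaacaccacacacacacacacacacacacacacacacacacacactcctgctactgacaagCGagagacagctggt
At position 128594728, B cells had 9.46% and T cells 93.6%, and at 128594661 they had 2.99% and 64.5%. At 128594767, near the beginning of the printed strand, the levels were 79.7% and 97.5%. From 0.5 kb before to 1.5 kb after the start, the tiles of *Cxcr4* were under 1% in both cell types. In oxBS libraries alone, in males alone and in females alone, the *Cxcr4* tile differed by -44.1 to -51.1 points (B minus T) with an adjusted p between 0.0557 and 0.126 in the quasi-binomial test.

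*Ccr9*, the receptor of CCL25 in thymus and small intestine, spans 105.9 kb (chromosome 9, 123678439-123784330, plus strand) and held 19 called tiles of 73, 18 of them more methylated in B cells. Its annotated start was low in both cell types. The coding transcripts Ccr9-201, Ccr9-203 and Ccr9-204 start 88.8 kb further on, and there B cells had 90.8% ± 2.904 and T cells 27.7% ± 5.94 (SD, n = 8 each). The difference was 63.1 points (adjusted p = 1.23e-08, quasi-binomial test). The tile from 89.5 to 90 kb had B cell libraries between 90.9% and 100% (median 96.7%) and T cell libraries between 8.70% and 35.7% (median 20.6%), a difference of 75.4 points (adjusted p = 2.06e-07, quasi-binomial test). A sense-overlapping gene, AC165425.1, also lies at that tile.

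Before these starts, a run of 5 called tiles from 76.5 to 80.5 kb was lower in T cells by 24.1 to 64.0 points. From 79 to 79.5 kb, B cell libraries lay between 74.2% and 93.5% (median 83.9%) and T cell libraries between 4% and 30% (median 19.4%). The only called tile with more methylation in T cells, from 84.5 to 85 kb, had means of 0.665% ± 1.76 in B and 21.2% ± 8.02 in T cells (SD, n = 7 and n = 6). With consecutive library numbers added it was not called (adjusted p = 0.103, quasi-binomial test), and 13 of the 18 in the other direction were. The called tiles at 36.5 and 38 kb lie in *Lztfl1* as well, a gene on the opposite strand, and belong to either gene by position.

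*Itgae* encodes the alpha-E chain (CD103), which pairs with beta-7 and binds E-cadherin on epithelium. It lies on the plus strand of chromosome 11 at 73090583-73147446, and 8 of its 98 tested tiles were called, 7 of them higher in B cells. The largest difference was in an intron, from 3.5 to 4 kb after the start. B cell libraries lay between 87.9% and 97.0% (median 95.3%) and T cell libraries between 7.69% and 27.1% (median 20.96%). The means of 94.4% ± 3.06 and 18.9% ± 7.67 differed by 75.5 points (adjusted p = 1.16e-07, quasi-binomial test).

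This stretch is shown because its 4 CpGs, the only ones of the tile, divided into those at an intermediate level in T cells and those near 0.
*Itgae*, chr11:73094103-73094402, plus strand of mm10: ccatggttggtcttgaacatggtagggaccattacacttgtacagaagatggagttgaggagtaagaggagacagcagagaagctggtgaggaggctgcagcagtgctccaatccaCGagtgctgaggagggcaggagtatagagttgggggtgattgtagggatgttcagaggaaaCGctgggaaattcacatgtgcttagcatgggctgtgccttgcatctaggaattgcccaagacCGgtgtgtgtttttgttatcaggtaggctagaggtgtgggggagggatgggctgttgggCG
The first 2, at 73094219 and 73094280, had 40% and 31.9% in T cells, and the last 2, at 73094342 and 73094401, had 0% and 1.14%, whereas all 4 were between 88.9% and 97.1% in B cells. The next tile, from 4 to 4.5 kb, fell lower in both, with B cell libraries between 29.2% and 44.8% (median 38.3%) and T cell libraries between 1.33% and 7.79% (median 4.47%). At the promoter, *Itgae* had 92.1% ± 2.27 and 83.8% ± 3.75, a difference of 8.31 points (adjusted p = 0.00198; exact permutation test over the libraries, two-sided, p = 3.11e-04) that was under the limit of 10. With consecutive library numbers added, the quasi-binomial test gave an adjusted p of 0.0901. Within 500 bp on either side of the start the difference was 16.0 points.

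*Itga4* encodes the alpha-4 chain of the receptors for VCAM-1, fibronectin and MAdCAM-1. Among the genes with a called tile it had the smallest share, 1 of 58 or 1.72%, under the 3.94% of all tiles (chromosome 2, gene 79255426-79333123, plus strand). The tile lay in an intron from 16.5 to 17 kb. B cell libraries lay between 92.9% and 100% (median 96.8%) and T cell libraries between 37.1% and 82.0% (median 54.2%), and the means of 96.2% ± 2.14 and 53.2% ± 13.6 differed by 43.0 points (adjusted p = 2.95e-05, quasi-binomial test). Among the tiles of largest difference of the 9 genes, T cells varied most in this one, with 1 library far above the other 7. In BS libraries alone and in females alone the difference was 36.6 and 39.95 points, and the quasi-binomial test gave this tile an adjusted p of 0.114 and 0.108.

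**Figure D4:**
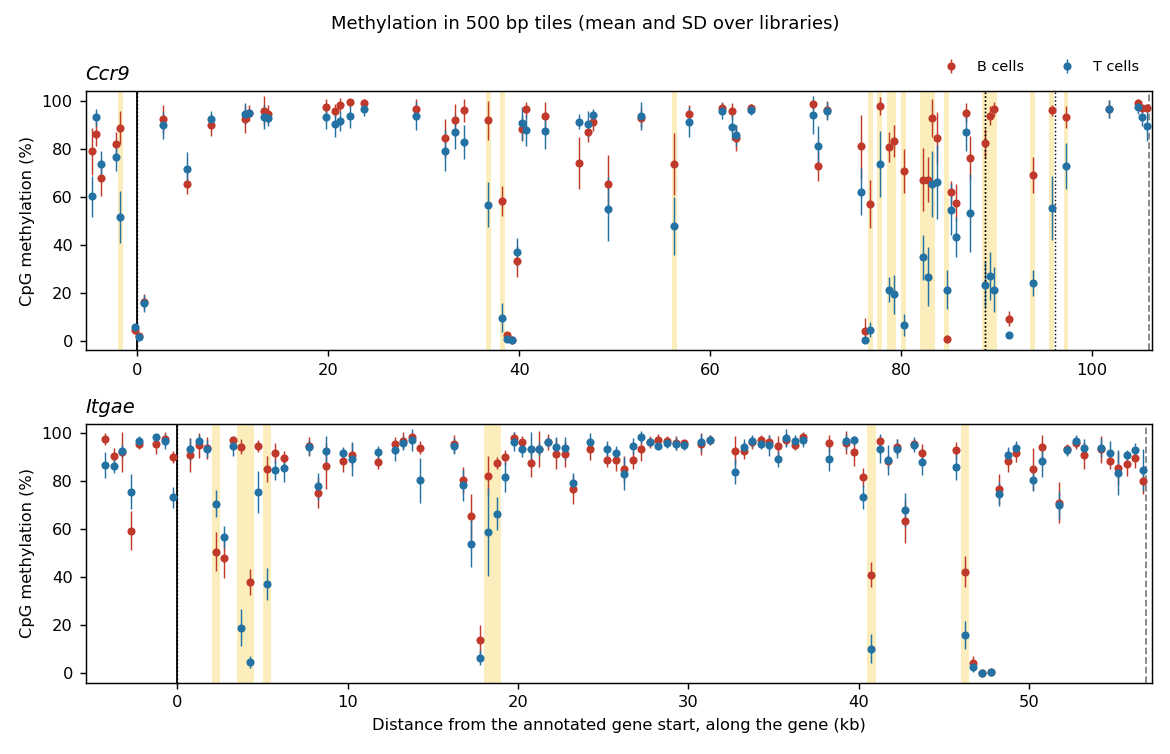
CpG methylation (%) in 500 bp tiles along *Ccr9* and *Itgae* against distance from the gene start (kb), drawn as in the plot of *Cxcr5* and *Ccr6*. At *Ccr9* the shaded tiles gather beyond 76.5 kb, around the starts at 88.8 kb; at *Itgae* the tile at 3.5 kb stands at 94.4% in B cells and 18.9% in T cells.

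Set side by side, the tile of largest difference was more methylated in B cells at 7 of the 8 genes with a called tile, and in T cells at *Cxcr4*. Called tiles elsewhere also lay more often in the first direction, with 2.58% of all tiles called higher in B cells and 1.35% in T cells. These tiles were chosen for their size, so the values describe them and their order is no test. Divided by sex and assay, the difference at *Cxcr5*, for example, was 66.6 points in males and 64.5 in females, and 58.9 points in BS and 72.2 in oxBS libraries.

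**Figure D5:**
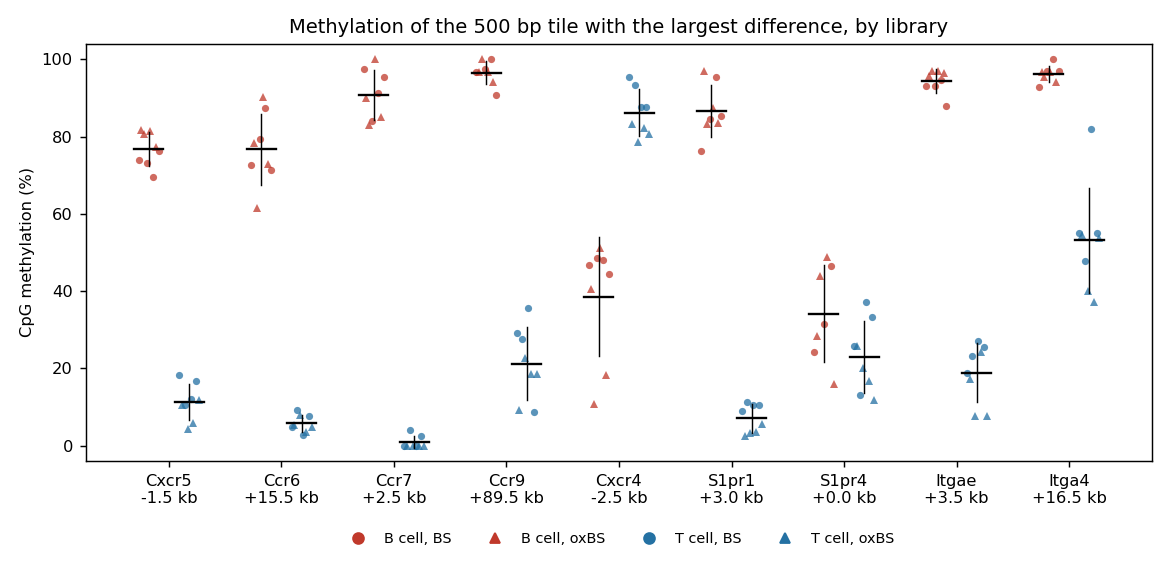
CpG methylation (%) of the tile with the largest difference in each gene, by library, named by its distance from the gene start (red, B cells; blue, T cells; circles, BS; triangles, oxBS; mean and SD). The cell types do not overlap at 8 genes, beside 85.0% of all called tiles without overlap. At *S1pr4* the cell types overlap (34.2% and 23.0%).

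Standard and oxidative bisulphite libraries were compared to ask where 5-hydroxymethylcytosine might be read. No tile of the 9 genes passed the quasi-binomial test (adjusted p under 0.05 and at least 10 points), nor did any of all tiles (0.0%), and the smallest adjusted p at these genes was 0.575. The assay term was common to both cell types, and the 10 points were a mean over them. T cells alone were not tested, so a difference confined to them could be missed. With consecutive library numbers as a block, 0 of 356 tiles passed for the assay or its interaction with cell type, with 42 and 47 at an unadjusted p under 0.05 (5.15% and 4.03% of all tiles). An unadjusted p under 0.05 was found for 58 of the 414 tiles, against 6.69% of all tiles. Of the 58 tiles 57 had the higher level in BS libraries, a share that was not computed over all tiles. The median BS minus oxBS difference of the tiles of the 9 genes was -0.113 points for B cells and 3.21 for T cells, beside -0.0350 and 1.15 points over all tiles.

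The largest of these values stood at the end of *Ccr7* in T cells. From 9 to 9.5 kb, in the coding exon, T cells had 46.0% ± 10.0 in BS and 13.2% ± 4.30 in oxBS libraries (SD, n = 4 each), with ranges of 36.4% to 55.1% and 8.90% to 18.1% that did not overlap. B cells had 92.5% ± 3.61 and 92.3% ± 3.01. The unadjusted p of the assay was 6.00e-04 and that of the cell type by assay interaction 0.00730, but the adjusted values were 0.575 and 0.870. The tiles before and after it had T cell differences of 24.8 and 25.6 points, and the tile of *Itgae* from 18 to 18.5 kb one of 31.4 points (74.3% and 43.0%), with adjusted p of 0.6001, 0.623 and 0.577 (quasi-binomial test). These tiles were chosen by their unadjusted p, so they are given as values.

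For the interactions of cell type with sex or assay, 0 of 414 tiles passed (0.0% of all tiles). An unadjusted p under 0.05 was found for 9 tiles with sex (2.76% of all tiles) and 58 with assay (5.68% of all tiles). Male and female libraries differed at none of the 414 tiles by the quasi-binomial test, with 14 at an unadjusted p under 0.05 (3.27% of all tiles). Of all tiles 0.129% differed by sex, 1655 of 1657 of them on the X chromosome, where none of these genes lies.

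Other genes of the same routes were counted by their promoters. Of 19 further genes, *Gpr183* and chemokine receptors, 4 were called, beside 2.93% of all promoters, and all 4 were more methylated in B cells. These were *Ccr8* (92.2% and 25.2%), *Cxcr6* (96.2% and 31.5%), *Ccr2* (91.0% and 53.5%) and *Gpr183* (36.6% and 5.95%), the last a receptor for oxysterols that positions B and T cells in the follicle border. Of all 612 called promoters, 349 were more methylated in B cells. The median B minus T difference of the list was 2.94 points, beside 0.570 over all promoters. None of 12 further genes of sphingosine-1-phosphate signalling was called, with the same 2.93% beside it (median 0.779 points).

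Of 22 integrins and genes of the selectin pathway 3 were called, beside 2.93% of all promoters. *Itgb7*, the partner chain of both *Itgae* and *Itga4* (37.4% and 16.3%), and *Itgal* (17.8% and 5.34%) were higher in B cells, and *Itga6* (51.1% and 71.6%) in T cells. Of 31 genes of receptor signalling *Coro1a* (51.1% and 30.6%) and *Rgs1* (25.0% and 14.7%) were called, both higher in B cells (2.93% of all promoters). Of 11 ligands and adhesion partners, which are made mainly by stromal and epithelial cells, 9 were tested and none was called. In tiles, where 3.94% of all were called, these lists ranged from 4.41% called in the ligands and 6.38% in the sphingosine-1-phosphate list to 11.3% in the list of other chemokine receptors and *Gpr183*. They were below the 18.4% of the 9 genes, a difference that was not tested. Of the marker lists, the share was 54.3% in T cell and 28.05% in CD8 T and NK cell markers. It was 11.8% in B cell, 2.42% in myeloid and 2.1% in erythroid and platelet markers.

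Short sequences resembling the sites of lymphocyte transcription factors were searched on both strands of the 76 called tiles. CCCNNGGG, a core like that of EBF1 sites, was in 9 of 76 (11.8%), beside 12.2% of all tiles and 16.0% of all called tiles. GAGGAAGT (like PU.1) was in 1, beside 3.17% of all and 5.18% of all called tiles. CTTTGAT (like TCF7 and LEF1) was in 7 (9.21%), beside 7.94% and 10.5%. TGTGGTT (like RUNX) was in 9 (11.8%), beside 11.5% and 17.5%, and AGATAA (like GATA factors) in 16 (21.1%), beside 23.9% and 24.95%. Each of the 5 was rarer in the called tiles of the 9 genes than in all called tiles. Beside all tiles, CCCNNGGG and TGTGGTT were about as common, CTTTGAT was more common, and GAGGAAGT and AGATAA were rarer. The counts were small, many called tiles adjoin each other, and none of these differences was tested. Among the tiles of largest difference, CCCNNGGG was in that of *S1pr4*, which was not called, TGTGGTT in those of *Cxcr5*, *Itgae* and *Itga4*, and AGATAA in those of *Cxcr4* and *Itga4*. These are matches of letters and not shown to be bound.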

How the data were processed

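The authors deposited counts, not normalised: at every CpG of a library, how many calls were unmethylated and how many methylated, with both strands added. According to the submitters' processing notes and methods, reads were trimmed with Trim Galore 0.6.0, aligned to mm10 with Bismark 0.20.0 and handled with SAMtools 1.3.1, keeping alignments with a MAPQ of at least 10. Levels in repeats, where fewer alignments pass, rest on fewer reads.

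Calls were added within each library over tiles and promoter windows. The level of a library was methylated over all calls, given with at least 20 calls. Tiles needed at least 3 CpGs and 5 such libraries in each cell type. B and T cells were compared by a quasi-binomial logistic model of the calls, adjusted for sex and assay (F test, dispersion at least 1, Benjamini-Hochberg over all tiles or promoters of all protein-coding genes). Calls required an adjusted p under 0.05 and 20 points in tiles or 10 points in promoters, and assay and sex 10 points. Differences are B minus T between mean library levels. Limits for a count of 0 use 3 calls and cover counting error only. The genes, lists and tests were chosen with earlier results of these data known. Genes were named as all 9 members and, of listed genes, those with a called promoter, up to 3 in a direction (*Gpr183* is a 4th, named after its value was seen). One listed gene is not reported here. Printed sequences are the 300 bases of the tile, outside annotated UTRs, with the most CpGs (at *S1pr1* all 275 bases outside the UTR). Other settings were tried for each kind of result, 6 of them chosen after seeing the data, and the model was checked on simulated counts. Libraries were simulated as independent for the main model, so that check cannot show how its p-values hold if libraries share DNA. Libraries of the same kind had a chi-square per tile of 1.19 to 1.33, against 2.77 to 3.50 between cell types. These values cannot tell whether libraries of the same kind came from the same DNA. BS and oxBS libraries of 1 sex with consecutive numbers had 1.21 to 1.24 in B cells (other numbers 1.27 to 1.34, same assay 1.29 to 1.33) and 1.55 to 1.604 in T cells (other numbers 1.57 to 1.61, same assay 1.19 to 1.24). Python 3.11.15, NumPy 2.4.6, SciPy 1.17.1, pandas 2.3.3, Numba 0.67.0 and Matplotlib 3.10.9 were used.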

Additional observations from a re-analysis of the deposited data

Results flagged for a closer look

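Of 36 sets of library levels examined (the tile of largest difference and the promoter window of each gene, in each cell type), 6 held 1 library far from the others of its cell type. Chance flags about 1 in 20 such sets. The flag compares gaps between levels and takes no account of the number of calls, so this share may not hold where calls are few. In the tile of largest difference of *Itgae*, 1 female BS library of B cells had 87.9% of 33 calls, with the others between 93.1% and 97.0%. In that of *Itga4*, 1 female BS library of T cells had 82.0% of 61 calls, with the others between 37.1% and 55.2%.

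At promoters, 1 male oxBS library of B cells was the highest at both *Cxcr4* (4.67%, others 0.141% to 1.82%) and *S1pr1* (7.71%, others 0.544% to 3.44%). The same library had the highest share of methylated calls on the mitochondrial chromosome among B cells, 1.21% against 0.0964% to 0.485% in the others, and the part of this in its levels was not tested. One female oxBS library of B cells was the highest at *Ccr6* (60.0%, others 37.4% to 47.7%) and the lowest at *Itgae* (86.9%, others 91.8% to 94.0%). Leaving out any 1 library changed no call of a promoter or of a tile of largest difference.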

How the results depend on the processing

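With each library left out in turn, between 69 and 78 tiles were called, and in each case 1 promoter. The count of 76 tiles moved by over 1.5 times with a minimum of 40 calls, to 39 of 213 tested, a share of 18.3% beside 3.97% of all tiles and so near the main 18.4%. With fewer libraries it was 39 in BS (9.92%, beside 1.34% of all tiles), 45 in oxBS (11.3%, beside 2.04%), 36 in male (9.14%, beside 1.35%) and 35 in female libraries alone (8.82%, beside 1.35%). The other 12 settings gave 56 to 103 tiles. The count of 1 promoter became 0 in BS, oxBS, male or female libraries alone and with a limit of 20 points, and 2 with a limit of 5 points or with only the 1 kb before the start (*Ccr7* and *Itgae*). Within 500 bp on either side it was again 1, but the called promoter was that of *Itgae* (16.0 points, adjusted p = 1.075e-04, quasi-binomial test) and not that of *Ccr7* (3.42 points). No difference that passed the test changed direction. Windows at other transcript starts called *Cxcr5*, *Ccr6* and *Ccr9*, as given above, and were added after seeing the data. Depth limits single libraries: a tile with 20 calls resolves steps of 5 points. B and T cells share no library numbers and could not be paired. Pairing BS with oxBS libraries by consecutive number was chosen after seeing the data. For 15 of 16 libraries the other-assay library nearest in levels, within its cell type and sex, had the consecutive number, a hint from the data and not from the labels. Each library had only 2 candidates, and in T cells these were close (chi-square per tile 1.55 to 1.604 for consecutive and 1.57 to 1.61 for other numbers). With the consecutive number as a replicate block, 0 tiles passed for the assay or its interaction with cell type. With the calls of a pair added 58 tiles and 1 promoter were called between B and T cells, with tiles higher in T cells going from 23 to 14.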
